A study of Zea mays with 8 samples.

Results

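The comparison described here set the maize hybrid that lacks working MOP1 (mop1F1) against the mean of the inbred lines B73 and Mo17, the mid-parent. It used 6 of the 8 libraries of the series: 2 of B73, 2 of Mo17 and 2 of mop1F1, all from immature ears. B73 and Mo17 are inbred lines, labelled wild type. The mop1F1 plants are B73/Mo17 hybrids homozygous for mop1, and the wild-type hybrid (WTF1, Mo17/B73, +/+, 2 libraries) is given alongside. The labels state neither the mop1 allele nor how many plants made up a library. The p-values therefore set a difference between groups only against the spread between libraries, which may include technical variation. The parental libraries are wild type, so they stand for the parental lines and not for the mop1 carriers behind mop1F1. The mop1F1 libraries thus differ from them in being hybrid, in lacking MOP1 and in any DNA that came with mop1. The mid-parent comparison cannot tell these apart. The direct comparison with WTF1 bears on the mutation together with any such DNA. The labels also write the 2 parents in a different order for each hybrid. If that order gives the direction of the cross, the direct comparison cannot tell it apart from the mutation.

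MOP1 is an RNA-dependent RNA polymerase related to RDR2 of Arabidopsis. It turns transcripts into double-stranded RNA, from which small interfering RNAs are cut that guide DNA methylation to matching sequence, in maize largely at transposons next to genes. The gene is named for its role in paramutation, a heritable silencing of one allele by another. In a hybrid, a gene whose parental copies each keep their own activity lies at the mean of the parents (additive expression), and a gene off that mean is called non-additive.

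Levels are given as CPM, counts scaled to a common library total over gene IDs, and the mid-parent is the arithmetic mean of the B73 and Mo17 CPM. IDs with at least 1 CPM in both libraries of both parents were kept, without the IDs numbered 1 to 460 and the GRMZM IDs, which left 19348 of 39498 IDs. At the edge of this rule, 180 IDs had a lowest parental level of 1 to 1.1 CPM and were kept, and 200 IDs had one of 0.9 to 1 CPM and were not. The libraries held 11723096 to 26199577 counted reads, and 3 counts, the limit that a count of 0 allows, correspond to 0.115 to 0.256 CPM, counting error only. No gene name is given, because 0 of the 39324 Zm00001d IDs matched the gene table used here. For the same reason neither the mop1 transcript nor the marker genes of the tissue could be checked. Reads of the Mo17 libraries were aligned to Mo17 and those of the other libraries to B73, so a difference in mapping and a departure from the mid-parent cannot be told apart.

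The 2 mop1F1 libraries stood apart from each other. Replicate 1 had 10.3% of its records ambiguous between genes and replicate 2 had 1.35%, compared with at most 2.35% in the parents. In WTF1 the shares were 9.70% in replicate 1 and 1.29% in replicate 2. The names of the deposited tables carry the tag GP1 for replicate 1 of both hybrids and GP5 for replicate 2 of both, and the labels do not explain these tags. The median log2 ratio to the mid-parent over all 19348 IDs was -0.22 (quartiles -0.58 and 0.21) in replicate 1 and -0.06 (quartiles -0.58 and 0.365) in replicate 2. Scaling by trimmed mean of M values (TMM) moved these medians by 0.19 and 0.02, to -0.03 and -0.04. Directions are therefore given under both scalings wherever they depend on it. Replicate 1 was within 1.5-fold of the mid-parent at 62.3% of IDs and replicate 2 at 59.4%. The corresponding shares in WTF1 were 57.2% and 69.0%.

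**Figure D1:**
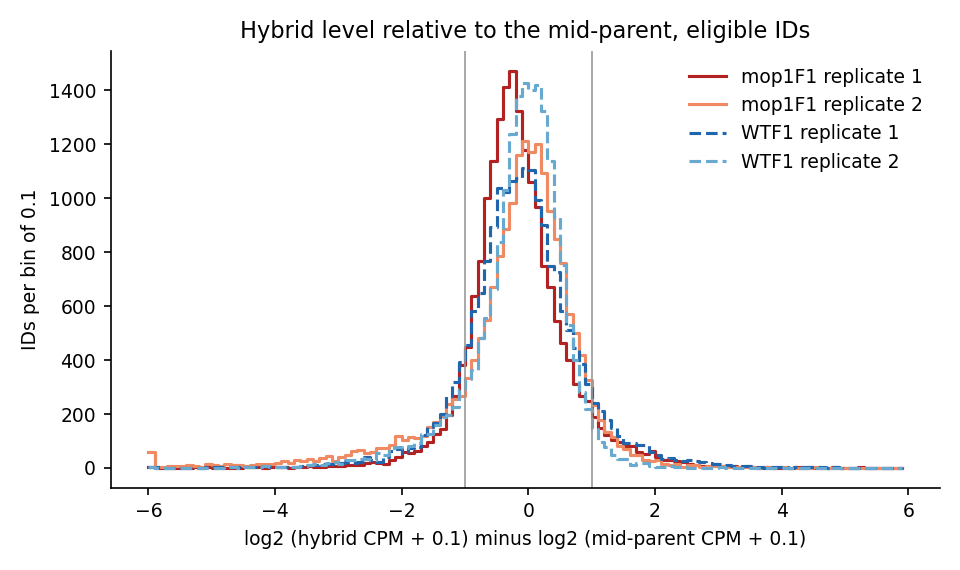
Number of IDs (vertical axis, bins of 0.1) by the log2 ratio of hybrid to mid-parent (horizontal axis, values beyond 6 drawn at the ends) for each hybrid library over 19348 IDs; grey lines mark 2-fold. The mop1F1 replicate 1 curve is centred at -0.22, left of replicate 2 at -0.06, and replicate 2 has the longer tail on the low side.

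At least 2-fold departures were common in either library alone and much rarer in both. Replicate 1 was at least 2-fold above the mid-parent at 1265 IDs and at least 2-fold below it at 1730. In replicate 2 there were 1109 IDs above and 2934 below. An ID was counted as having left the mid-parent level when both mop1F1 libraries were at least 2-fold from it, on the same side of each of the 4 mid-parents that the parental libraries can form. By this description, which is no test, 967 IDs (5.0% of those kept) left the mid-parent level in mop1F1. Of these, 242 were higher (1.251%) and 725 were lower (3.75%). The 2-fold limit alone gave the same 242 and 725 IDs, so the condition on the 4 mid-parents removed none. With TMM-scaled CPM, 329 were higher and 586 lower, and these included all 242 of the higher IDs and 586 of the 725 lower ones. Either mop1F1 library alone gives more IDs by the same rule, 4043 without replicate 1 and 2995 without replicate 2, since 1 library then decides.

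Larger departures were fewer and mostly downward. At least 4-fold in both libraries, 30 IDs were higher and 153 lower. At least 8-fold, 9 were higher and 48 lower, and at least 16-fold, 1 was higher and 14 lower. In WTF1 the same rule gave 268 IDs higher (1.39%) and 821 lower (4.24%), 1089 in all (5.63%). Of these, 16 higher and 205 lower IDs were at least 4-fold away. WTF1 and mop1F1 share the parental libraries, and the difference between their counts was not tested.

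The number of IDs called depended on the test and on how the fit and its mid-parent were built. Against 2 mixed libraries made of equal numbers of B73 and Mo17 reads, 0 of 24954 IDs (0.0%) passed in mop1F1, and the smallest adjusted p was 0.133 (edgeR quasi-likelihood test). In that fit, 1886 of the 19348 IDs (9.75%) had an unadjusted p below 0.05, of which 1104 (5.71%) were higher and 782 (4.04%) lower. With library totals in place of TMM the split turned to 633 higher and 1082 lower. Leaving out a library turned it too: without mop1F1 replicate 1 there were 1915 higher and 2182 lower IDs. Without 1 parental library the 1886 IDs became 387 to 445, of which 113 to 200 were higher and 245 to 281 lower. DESeq2 on the same libraries called 545 of the 19348 IDs (2.82%), 270 higher and 275 lower. Of the IDs that had left the mid-parent level, DESeq2 called 162 of the 242 higher and 272 of the 725 lower ones.

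An alternative test took the mid-parent on the log scale, in one edgeR fit of all 8 libraries (quasi-likelihood test, p-values adjusted over 24511 IDs). It thus changed the mid-parent and the fitted libraries together. It called 587 of the 19348 IDs in mop1F1 (3.03%). Where the parental means were within 1.5-fold of each other, at 12957 IDs, the arithmetic and the log-scale mid-parent differ by at most 0.03 on the log2 scale. These IDs were therefore looked at separately, a choice made after the data were seen. In mop1F1, 323 of the 12957 IDs passed (2.49%): 255 rose above the parents (1.97%) and 68 fell below them (0.525%). The rise had a median log2 fold change of 1.253 (quartiles 1.07 and 1.66) and the fall one of -1.61 (quartiles -2.53 and -1.31). At all 255 and all 68 of these IDs, both mop1F1 libraries lay beyond all 4 parental libraries. The IDs were picked by a test on these same libraries, so this largely follows from the choice. Among all 12957 IDs, both mop1F1 libraries were above all parental libraries at 1546 and below all at 2448. The median mid-parent level was 21.04 CPM for the 255 IDs that rose and 27.2 CPM for the 68 that fell.

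The same fit called 141 IDs higher (1.09%) and 51 lower (0.394%) in WTF1 among the 12957. At the 255 IDs that rose in mop1F1, the median log2 ratio to the mid-parent was 0.95 and 1.24 in the mop1F1 libraries, and 0.97 and 0.94 in the WTF1 libraries. At the 68 IDs that fell, it was -1.73 and -1.75 in mop1F1, and -1.06 and -1.31 in WTF1. Tested directly, mop1F1 differed from WTF1 at 0 of the 255 and 1 of the 68 IDs (edgeR, adjusted p below 0.05; 1 of all 19348 IDs, 0.00517%). At an unadjusted p below 0.05 it was 26 and 21 IDs, against 297 of all 19348 (1.54%). The 255 and 68 IDs were picked for their mop1F1 levels, so these shares are a description. The count of 323 rested on the parental replicates: leaving out B73 replicate 1 gave 22, B73 replicate 2 gave 23, Mo17 replicate 1 gave 23 and Mo17 replicate 2 gave 31. It came to 587 when WTF1 replicate 1 was dropped, and to 1332 without mop1F1 replicate 1. With library totals 142 rose and 88 fell.

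Where the parents differed, mop1F1 lay nearer to the parent with the lower level at the median, and so did WTF1. B73 was at least 2-fold higher than Mo17, without overlap between libraries, at 1735 IDs, and Mo17 was higher at 1178. At the IDs higher in B73, 18 left the mid-parent level upward and 284 downward, so that 16.4% of this class was lower, against 3.75% of all IDs. At the IDs higher in Mo17, 28 were higher and 77 lower (6.54% lower). Where the parents were similar, 139 were higher and 233 lower (1.80% lower). The classes were formed from the same parental values that make up the mid-parent, so these shares are a description. With TMM the numbers were 24 and 236 in the first class, 36 and 65 in the second, and 201 and 177 at similar parents, where the balance thus turned with the scaling. In WTF1, library totals gave 20 higher and 362 lower IDs in the first class and 27 and 72 in the second. At similar parents they gave 161 and 242. The excess of lower IDs where B73 was higher was thus not particular to mop1F1.

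**Figure D2:**
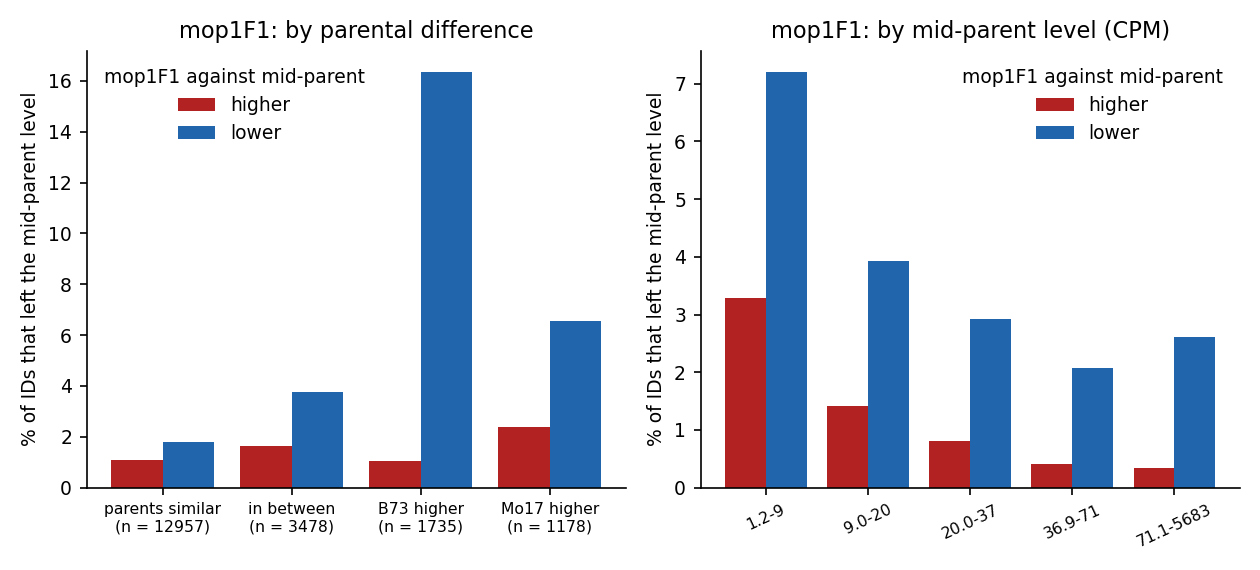
Share of IDs (%) that left the mid-parent level in mop1F1, higher (red) and lower (blue), by parental difference (left) and by mid-parent level in CPM, 5 groups of equal size (right); library-total CPM, no error bars because each bar is a count over IDs. The lower share reaches 16.4% at IDs higher in B73, and 10.5% of the IDs in the lowest group left in either direction, against 2.95% in the highest. WTF1, not drawn, had 362 lower IDs among the 1735 higher in B73, against 284 in mop1F1.

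The distance between the parents can be set to 100%, from the lower parent at 0% to the higher at 100%, with the mid-parent at 50%. At the IDs higher in B73, the median place of mop1F1 was 31.3% in replicate 1 and 7.46% in replicate 2. The WTF1 libraries were at 30.4% and 9.49%, so that the libraries numbered 2 of both hybrids lay close to the Mo17 level. At the IDs higher in Mo17, mop1F1 was at 25.1% and 33.5%, and WTF1 at 42.1% and 31.9%. The low place of mop1F1 replicate 2 at IDs higher in B73 held for parental differences of 2 to 4-fold (5.86%, 1304 IDs), of 4 to 8-fold (7.36%, 312 IDs) and above 8-fold (16.4%, 119 IDs). Low alignment quality set aside 9.35% and 8.01% of records in the mop1F1 libraries, 9.35% and 8.31% in WTF1, and at most 6.06% in the parents. Their part in these levels was not tested.

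Part of the distance below the mid-parent depends on the kind of mean. Against the arithmetic mean, the median log2 ratio of mop1F1 at the IDs higher in B73 was -0.29 in replicate 1 and -0.78 in replicate 2. Against the geometric mean, tried after the data were seen, it was -0.08 and -0.55. At the IDs higher in Mo17 it moved from -0.36 and -0.24 to -0.18 and -0.05. Replicate 2 at the IDs higher in B73 thus kept a median below -0.5 on either scale.

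**Figure D3:**
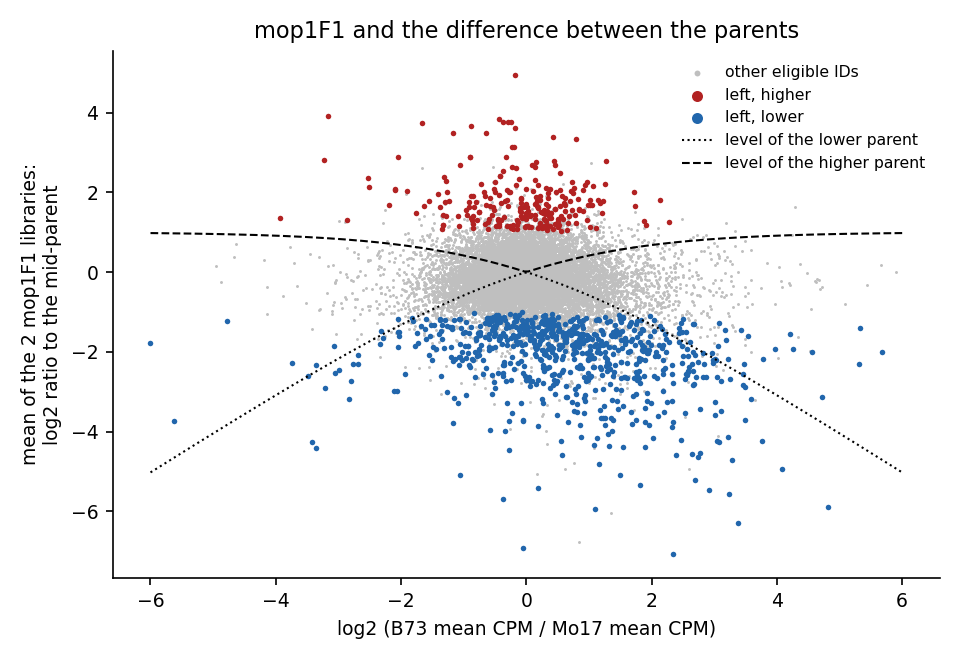
Mean log2 ratio of the 2 mop1F1 libraries to the mid-parent (vertical axis) against log2 of the B73 over Mo17 mean CPM (horizontal axis, values beyond 6 drawn at the ends), 1 point per ID; dotted and dashed lines give the levels of the lower and higher parent. Of the 242 higher IDs (red), 139 had similar parents, a smaller part than among all IDs (12957 of 19348). The red points near equal parents thus lie where most IDs lie. The 725 lower IDs (blue) extend to the right, where B73 is higher.

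Most of the departures lay outside the range of both parents, which the 2-fold limit largely fixes in advance. A level at least 2-fold above the arithmetic mean of 2 parents is necessarily above both parental means. A level at least 2-fold below it is below both means unless the parents differ widely. The counts of such IDs are therefore a description. Of the 242 higher IDs, 238 were above all 4 parental libraries in both mop1F1 libraries. Of the 725 lower IDs, 584 were below all 4 parental libraries in both mop1F1 libraries. At the other 141, at least 1 mop1F1 library was not below all of them. Without the 2-fold limit, both mop1F1 libraries were above all parental libraries at 1830 IDs (9.46%) and below all of them at 3091 (16.0%). TMM scaling turned this balance to 2730 above and 2403 below. For WTF1, library totals gave 2528 above (13.1%) and 2843 below (14.7%).

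IDs of low level left the mid-parent more often. The IDs were split into 5 groups of equal size by mid-parent level. In the lowest group, from 1.16 to 9.03 CPM, 127 of 3870 IDs were higher and 279 lower, 10.5% together. In the highest group, from 71.1 CPM, 13 were higher and 101 lower, 2.95% together. The share in WTF1 was 11.1% in the lowest and 4.01% in the highest group. Counting error is larger at low levels, and its part in this gradient was not tested. The median mid-parent level was 8.54 CPM for the 242 higher IDs and 14.1 CPM for the 725 lower ones, against 27.4 CPM for all.

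The IDs that stood highest above the mid-parent in mop1F1 were high in a WTF1 library as well. Zm00001d001820.RefGen_V4 had 1.77 and 4.14 CPM in B73, 2.95 and 3.76 CPM in Mo17, and 149 and 67.6 CPM in mop1F1. Both mop1F1 libraries were far above all parental ones, at 47.2-fold and 21.4-fold of the mid-parent (3.16 CPM). It reached 35.7 CPM in WTF1 replicate 1 and 5.88 CPM in WTF1 replicate 2. Zm00001d036535.RefGen_V4 had 3.81 and 6.995 CPM in B73 and 4.52 and 8.27 CPM in Mo17. In mop1F1 it had 98.7 and 67.3 CPM, 16.7-fold and 11.4-fold of the mid-parent, with no overlap with the parents. The WTF1 libraries of this ID were split, at 137 and 9.96 CPM, so that the hybrids overlapped.

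After this pair, whose parents were also similar, the next 2 IDs farthest above both parents at similar parental levels were named. Zm00001d039040.RefGen_V4 had 6.50 and 7.93 CPM in B73, 8.50 and 11.04 CPM in Mo17, and 188 and 80.4 CPM in mop1F1. WTF1 had 41.2 and 8.02 CPM of it, the second at the parental level. Zm00001d014564.RefGen_V4 had 4.08 and 5.65 CPM in B73, 4.64 and 6.36 CPM in Mo17, and 45.4 and 90.1 CPM in mop1F1. Here both WTF1 libraries, at 74.0 and 23.8 CPM, were also above all parental libraries. Against the log-scale mid-parent, all 4 of these IDs rose in mop1F1: log2 fold changes were 5.24 ± 0.72 for Zm00001d001820.RefGen_V4, 3.94 ± 0.83 for Zm00001d036535.RefGen_V4, 4.14 ± 0.61 for Zm00001d039040.RefGen_V4 and 3.79 ± 0.45 for Zm00001d014564.RefGen_V4 (SE; edgeR, adjusted p = 0.00771, 0.0367, 0.0109 and 0.0049). Against the mixed libraries none of the 4 passed (edgeR, adjusted p = 0.219, 0.301, 0.224 and 0.204). Between the hybrids none passed either (edgeR, adjusted p = 1 for each).

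The lowest IDs included a pair with much higher levels in WTF1. Zm00001d003267.RefGen_V4 had 253 and 208 CPM in B73, 255 and 224 CPM in Mo17, and 1.53 and 2.23 CPM in mop1F1. Both mop1F1 libraries were thus 154-fold and 106-fold below the mid-parent of 235 CPM, while WTF1 had 244 CPM, within the parental range, and 109 CPM, below it. Against WTF1 the log2 fold change was -6.48 ± 0.50 (SE, edgeR, adjusted p = 0.0449; from 1.19e-39 with DESeq2 up to 0.802 over the alternatives). Of the 19348 IDs it was the only one called between the hybrids (0.00517%; edgeR, 297 at an unadjusted p below 0.05). The call between the hybrids was lost without either B73 library, either Mo17 library or mop1F1 replicate 2, with 0 IDs called, and 178 were called without mop1F1 replicate 1. Zm00001d003199.RefGen_V4 had 5.42 and 3.44 CPM in B73, 6.45 and 4.97 CPM in Mo17, and 0 counts in both mop1F1 libraries. With a limit of 3 counts per library, it was at least 39.7-fold lower than the mid-parent. It was at least 28.9-fold lower than the WTF1 mean of 3.69 CPM. The WTF1 libraries had 2.64 CPM, below all 4 parental libraries, and 4.73 CPM, within their range. Zm00001d003199.RefGen_V4 was the only one of the 19348 IDs at 0 counts in both mop1F1 libraries. The difference of this ID from WTF1 did not pass in edgeR (adjusted p = 0.233) and passed in DESeq2 (adjusted p = 2.05e-05).

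The next pair was low in both hybrids. Zm00001d027824.RefGen_V4 had 28.3 and 29.9 CPM in B73, 23.3 and 27.7 CPM in Mo17, and 0.425 and 0.691 CPM in mop1F1. WTF1 was also below the parents, at 1.19 and 2.63 CPM, and above both mop1F1 libraries. Zm00001d051896.RefGen_V4 had 8.54 and 9.68 CPM in B73, 4.46 and 7.81 CPM in Mo17, and 0.255 and 0.192 CPM in mop1F1. WTF1 had 0.0853 and 0.344 CPM of it, a range that encloses the mop1F1 libraries. Against the log-scale mid-parent, all 4 of the low IDs fell (edgeR, adjusted p = 0.00109 for Zm00001d003267.RefGen_V4, 0.00435 for Zm00001d003199.RefGen_V4, 0.00157 for Zm00001d027824.RefGen_V4 and 0.00723 for Zm00001d051896.RefGen_V4). Against the mixed libraries they did not pass (edgeR, adjusted p = 0.133, 0.183, 0.15 and 0.199). Neither of the last pair passed between the hybrids (edgeR, adjusted p = 1 for both).

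**Figure D4:**
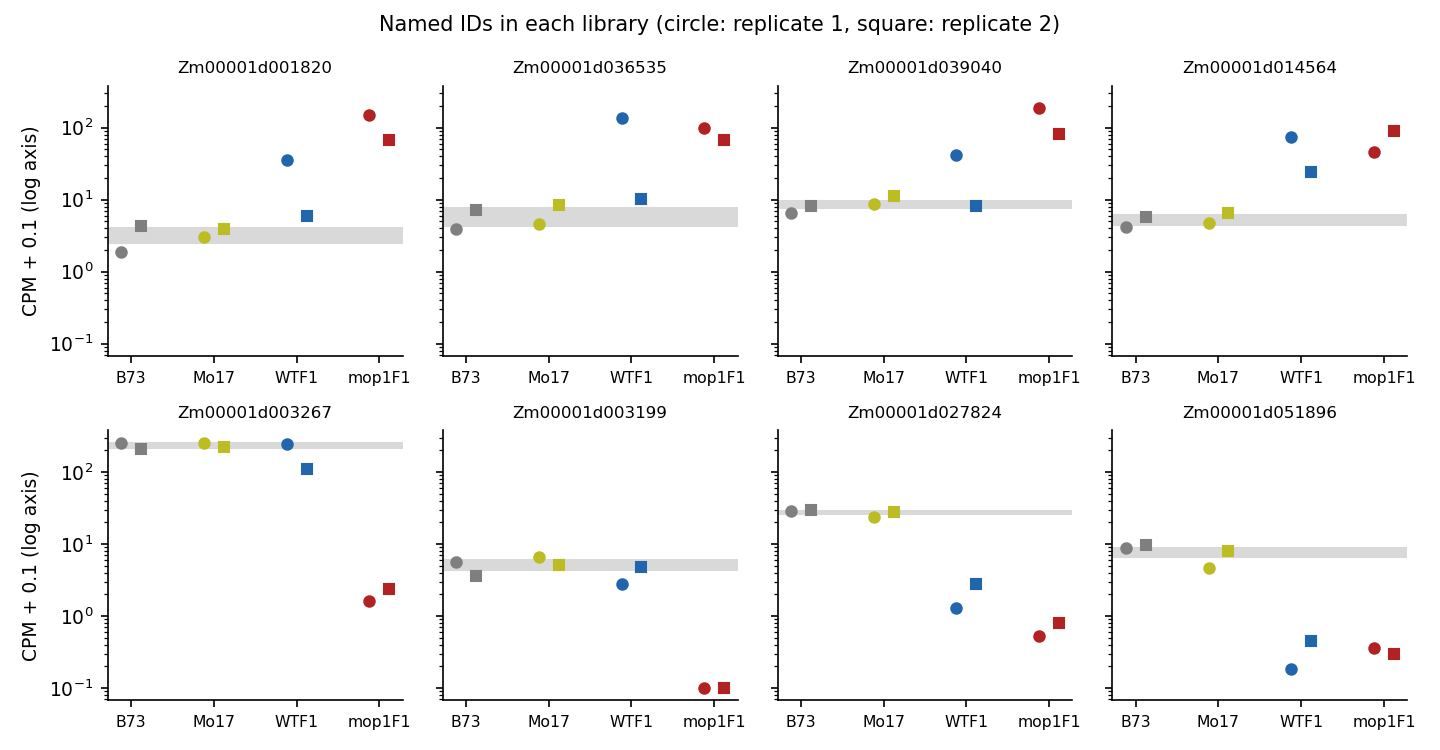
CPM + 0.1 (log axis) of the 8 named IDs in each library, circles for replicate 1 and squares for replicate 2; the grey band spans the 4 mid-parents. The top row holds the IDs above the mid-parent and the bottom row those below; Zm00001d003267 and Zm00001d003199 are far lower in mop1F1 than in WTF1, and Zm00001d027824 and Zm00001d051896 are low in both hybrids.

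Over all IDs that left the mid-parent level, WTF1 levels lay on the same side at the median. At the 242 higher IDs the median log2 ratio to the mid-parent was 1.66 in mop1F1 and 1.36 in WTF1. At the 725 lower IDs it was -1.80 in mop1F1 and -1.60 in WTF1. Both mop1F1 libraries lay above both WTF1 libraries at 70 of the 242 higher IDs (28.9%; 4.43% of all IDs). They lay below both WTF1 libraries at 156 of the 725 lower IDs (21.5%; 6.67% of all IDs). The members were picked for their mop1F1 levels, so larger shares than over all IDs follow from the choice.

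The number of lower IDs varied along the ID numbers, which were taken as an order only, since no coordinates were used. In 96 consecutive blocks of 200 IDs, the number below the mid-parent in mop1F1 had a median of 7 and ranged from 2 to 23. The block numbered from 3116 to 3652 held the 23, and WTF1 had 8 there. The next highest, from 48562 to 49179, held 20 in mop1F1 and 15 in WTF1. In the block with the 23 lower IDs, 2 IDs were above the mid-parent in mop1F1 and 2 in WTF1. Zm00001d003267.RefGen_V4 and Zm00001d003199.RefGen_V4 both belong to this block, which was singled out for its count. Any segment linked to the mutation differs along with it, and the mutation and such a segment cannot be told apart.

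**Figure D5:**
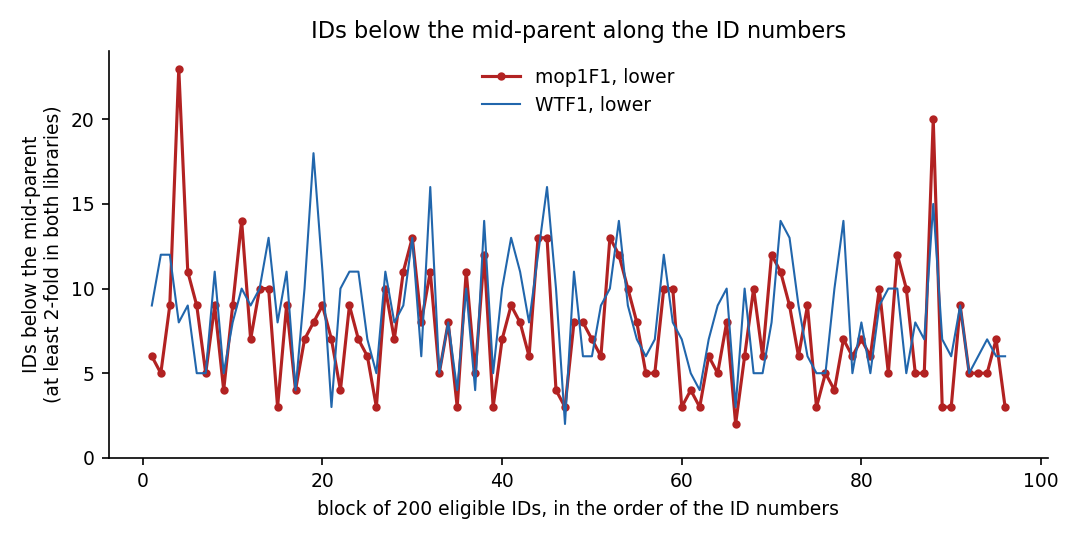
IDs at least 2-fold below the mid-parent in both libraries (vertical axis) in each of 96 blocks of 200 IDs in the order of their numbers (horizontal axis), mop1F1 in red and WTF1 in blue. The highest mop1F1 count, 23, is in block 4, where WTF1 has 8.

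At 2.59% of the 19348 IDs, the 2 mop1F1 libraries departed in opposite directions, at least 2-fold each. At 482 IDs replicate 1 was at least 2-fold above the mid-parent and replicate 2 at least 2-fold below it, while 19 IDs showed the reverse. The median level over the 482 IDs was 72.2 CPM in mop1F1 replicate 1 and 3.44 CPM in replicate 2, a gap that follows from how they were picked. The parental medians were 17.0 to 19.5 CPM, and those of WTF1 were 55.0 CPM in replicate 1 and 19.2 CPM in replicate 2. Of these IDs, 221 had similar parents. Such opposite departures numbered 100 and 8 in WTF1.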

How the data were processed

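Each deposited file gives 1 library's raw counts for every gene ID. Its 5 summary rows were left out of totals and tests. The submitters' processing notes name HISAT2, HTSeq, DESeq2, Trimmomatic and FastQC, without versions. Per the names of the deposited tables, Mo17 libraries were mapped to Mo17 and all others to B73. The annotation release, the aligner options and whether counting used strand are not stated, and overlapping or antisense genes and members of gene families may share reads.

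The members and lists were chosen with earlier results of these data known. B73 and Mo17 libraries of the same number were thinned to 16582416 reads each (seed 11) and added. The pairing by number was arbitrary, and the spread between the mixtures is that of sums of libraries. The 2 mixtures and 4 hybrid libraries were fitted in R 4.3.3 with edgeR 4.0.16 and limma 3.58.1, using filterByExpr, TMM, group means, quasi-likelihood F test, Benjamini-Hochberg adjustment over all IDs tested, threshold 0.05. All 8 libraries were fitted for mop1F1 against WTF1 and for the log-scale mid-parent. SE is the log2 fold change divided by the square root of F. DESeq2 1.42.0 was an alternative. Log2 ratios used CPM + 0.1. The fits were tested on simulated data. Without names, the 2 higher and 2 lower IDs whose nearer mop1F1 library was farthest from the mid-parent were named, and the next 2 and 2 farthest outside both parents at similar parental levels. The gene lists by symbol could not be used.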

Additional observations from a re-analysis of the deposited data

Results flagged for a closer look

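Several classes of uncounted reads, which no comparison used, took a larger share of records in a mop1F1 library than in any parental library. Ambiguous reads made up 10.3% of records in mop1F1 replicate 1, against at most 2.35% in a parent and 9.70% in WTF1 replicate 1. Low alignment quality accounted for 9.35% in replicate 1 and 8.01% in replicate 2, against at most 6.06% in a parent, and 9.35% and 8.31% in WTF1. Reads with several alignments made up 3.25% and 3.43%, against at most 3.09% in a parent, and 3.37% and 3.09% in WTF1. Reads without a feature made up 5.79% in replicate 2, against at most 5.60% in a parent and 5.24% in WTF1. Their part in the departures from the mid-parent was not tested.

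Zm00001d003267 differed between the hybrids in a direct test: the log2 fold change of mop1F1 against WTF1 was -6.48 (edgeR, adjusted p = 0.0449), and mop1F1 was lower in 2 of 2 libraries. The call depended on the fit. With a replicate block the adjusted p was 0.0803 (edgeR), and fits of the hybrids alone or of the kept IDs alone called no ID.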

How the results depend on the processing

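Over all IDs tested, kept or not, the 0 IDs called against the mixed mid-parent became 1023 with DESeq2 (616 higher, 407 lower) and 9 without a filter. With the log-scale mid-parent they became 1485 of 24511 (1278 higher, 207 lower). Among the 19348 kept IDs, DESeq2 called 270 higher and 275 lower (2.82% together). The log-scale mid-parent called 396 of them higher and 191 lower (3.03% together), so most of its higher calls were at IDs not kept. The 1886 IDs at an unadjusted p below 0.05 became 3386 with the log-scale mid-parent and 387 to 4097 without a library. The 967 IDs that left the mid-parent level became 541 at a minimum of 5 CPM, 2565 at 1.5-fold, 183 at 4-fold, and 963 to 4043 without a library. Both mop1F1 libraries beyond all parental ones numbered 4921, and 5545 to 12062 without a library. The median log2 ratio of mop1F1, from mean CPM, was -0.05 at similar parents (-0.20 to 0.014 without a library), -0.37 at IDs higher in B73 (-0.78 to -0.29) and -0.20 at IDs higher in Mo17 (-0.36 to -0.11). In the same order, they were 0.05, -0.25 and -0.083 with TMM, which turns the sign at similar parents, -0.03, -0.57 and -0.28 with the stricter classes, and -0.04, -0.15 and -0.023 with the geometric mid-parent. The 1 ID called between the hybrids became 23 with DESeq2, 6 without a filter, and 0 in a fit of the hybrids alone or of the kept IDs alone; leaving out a library gave 0 to 178. The 323 IDs with similar parents became 622 without WTF1, and 22 to 1332 without a library. The causes were not tested. The 8 named IDs kept their direction in every alternative fit against the mid-parent. They were picked for their distance from the mid-parent or the parents in these same libraries, so this follows from the choice. Without a parental library, 1 mixture remained, and its spread was assumed to match that of the hybrids.

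A replicate block left 0 IDs called against the mixed mid-parent (1645 at an unadjusted p below 0.05), 0 between the hybrids and 182 of the 12957 with similar parents. With it the adjusted p (edgeR) of Zm00001d003267 between the hybrids was 0.0803, and that of Zm00001d036535 against the log-scale mid-parent was 0.0569. The tags GP1 and GP5 and the share of ambiguous reads follow the number in both hybrids, but no label says that a number marks a batch, so whether the numbers pair the libraries was not settled. The difference of replicate 1 from replicate 2 correlated over IDs at 0.34 between WTF1 and mop1F1, 0.13 between Mo17 and mop1F1, and -0.08 between B73 and mop1F1.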

Other observations

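IDs below the mid-parent tended to stand next to each other, in mop1F1 and in WTF1. Of the 725 lower IDs, 116 (16.0%) had a direct neighbour in the order of kept IDs that was also lower, whereas 7.28% of all kept IDs had such a neighbour. Of the 242 higher IDs, 12 (4.96%) had a higher neighbour, against 2.47% of all. In WTF1 the shares were 15.5% of the 821 lower IDs, against 8.17% of all, and 5.97% of the 268 higher IDs, against 2.77% of all. The longest run of lower IDs in mop1F1 had 3 members, between the numbers 3149 and 3153. In WTF1 the longest had 4, between 23400 and 23413. Neighbouring IDs can be copies of one gene that share reads, and this was not examined.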
